A study of Homo sapiens with 9 samples.

Results

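The comparison described here set the 3 libraries of the ORF group against the 3 libraries labelled MT, 6 of the 9 libraries of the study. Members were chosen by their labelled group alone. All libraries came from the established colon cancer line HCT-116, which is of human origin and was grown in RPMI 1640 medium with fetal bovine serum. ORF cells carried a stably expressed open reading frame of LINC00266-1. This gene is annotated as a long intergenic RNA, but its reading frame encodes a peptide. Cells labelled MT were described as stably carrying a construct of the 5' UTR and the reading frame in which the start codon ATG had been changed to ATT, so that the peptide should not be made. The remaining 3 libraries, NC, came from cells with a blank vector and are given as background. RNA was sequenced on an Illumina instrument, and the study asked whether the peptide acts on gene expression and on mRNA splicing. The labels name no clone, vector backbone or promoter, and do not say whether replicates were separate cultures, so the p-values below rest on a spread between libraries that may be technical only.

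A start-codon mutant is used to separate what a peptide does from what the RNA that encodes it does. Immediate early genes such as JUN, FOS and EGR1 are switched on quickly by growth factors and by stress, without new protein synthesis. The integrated stress response works through phosphorylation of the translation factor eIF2alpha and raises the transcription factors ATF4, ATF3 and DDIT3. Many genes of RNA-binding proteins, SR proteins among them, tune their own output by keeping introns in or by including exons that lead to decay of the transcript.

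Reads recovered from the deposited values lay between 19.5 M (ORF replicate 2) and 24.4 M (MT replicate 2), with M for mega. Levels below are normalized reads, that is reads divided by 1 set of size factors over all 9 libraries. Of 10 colon epithelial markers, 9 had reads in both groups, with a summed level of 3671 to 4869 reads per M reads (CPM) in ORF and 3735 to 4843 in MT, and CDX1 was not in the joined table. Fibroblast markers summed to at most 0.988 CPM in ORF and 1.67 in MT. The hepatocyte genes ALB, AFP and TTR and the blood cell genes PTPRC, CD3E, MS4A1 and CD68 were not in the joined table. The remaining blood cell markers, CD14 among them, summed to 3.35 to 3.73 CPM in ORF and 1.64 to 2.41 in MT, hepatocyte markers to 7.0 to 9.11 and 9.64 to 12.9, and markers of other cultured lines to 24.1 to 26.8 and 31.1 to 37.1. The libraries of a group also differed in base composition. The correlation across genes between a library's deviation and the GC content of the gene was 0.771 in ORF replicate 1 and 0.748 in MT replicate 2, and between -0.363 and -0.712 in the other 4 libraries.

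LINC00266-1, on chromosome 20, was read first because it checks the labels. It stood at 11154, 11083 and 11885 normalized reads in the ORF libraries, at 0.995, 0 and 0 in the libraries labelled MT, and at 1.01, 0 and 0 in NC. In reads, this was 30490 in ORF and 1 in MT, a ratio of 33528 with a 95% counting interval of 6017 to 1.32e+06, which covers counting error only. A construct that keeps the reading frame and its 5' UTR would be read as this gene, so the libraries labelled MT go against their label at this gene, and the comparison sets libraries full of its reads against libraries with next to none. LINC00266-1 has near-identical copies elsewhere in the genome, among which reads can be split. Peptide and RNA therefore cannot be told apart in these libraries, and each direction below is a direction against the libraries labelled MT.

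PKM, which encodes the pyruvate kinase of the last step of glycolysis, dominated the difference in read share. It took 4.34, 3.67 and 5.54% of all reads in the ORF libraries and 0.282, 0.342 and 0.262% in MT, or 4.52% ± 0.947 against 0.296% ± 0.0418 (SD, n = 3). The ORF and MT ranges lay far apart, and the MT values sat beside the NC values of 0.275, 0.274 and 0.263%. MYC, the proto-oncogene transcription factor, stood at 9125, 7704 and 8553 normalized reads in ORF and at 7974, 8336 and 7899 in MT, so the groups overlapped (log2 difference 0.07 ± 0.12 SE, limma adjusted p = 0.851). IGF2BP1, which encodes a reader of the m6A mark on RNA, stood at 20.2, 30.3 and 21.9 in ORF and at 22.9, 18.4 and 25.3 in MT (0.11 ± 0.29, adjusted p = 0.904).

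Across all genes, 458 of 26546 genes tested (1.73%) passed limma at a Benjamini-Hochberg adjusted p below 0.05. Of these, 239 (0.900% of genes tested) were higher in ORF and 219 (0.825%) were lower. The difference was at least 2-fold in 116 of the higher and 83 of the lower genes, on a log2(value + 1) scale that understates changes of genes with few reads. All 458 had ORF and MT libraries that did not overlap, which was also so for 18.2% of all genes tested. With TMM scaling, which moved the share of higher calls by over 10 percentage points, 212 genes were higher and 321 were lower. The balance moved the other way with only the 6 ORF and MT libraries, 65 higher and 24 lower. Without ORF replicate 3 it was 39 and 12, and without ORF replicate 1 it was 567 and 760. The median GC content was 48.5% in higher genes, 58.4% in lower genes and 48.6% in all genes tested, and the median transcript length was 2745, 4040 and 2286 bases. After adjustment for GC content and length, 2242 genes were called, 457 of the 458 among them. The part of base composition in the calls was not tested further. In bulk RNA, fewer cells of a type and less RNA per cell cannot be told apart.

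**Figure D1:**
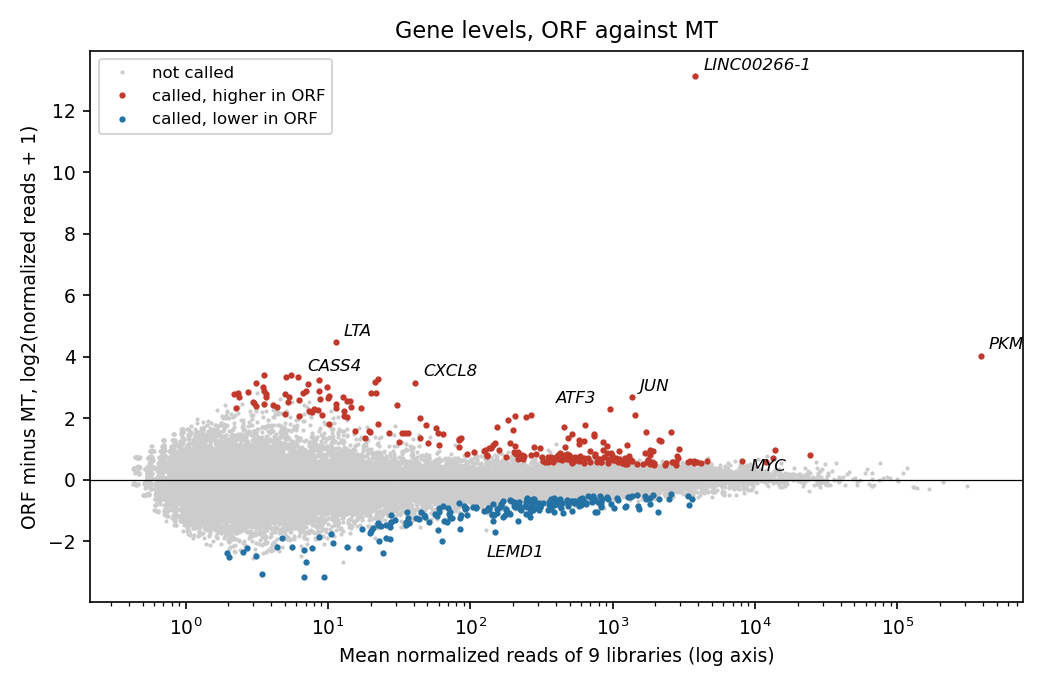
Each point is a gene, with the mean normalized reads of all 9 libraries on a log axis and the ORF minus MT difference in log2(normalized reads + 1). Red and blue points are the 239 higher and 219 lower genes, and LINC00266-1, PKM and LTA lie highest among the genes marked by name.

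Single libraries decided how many genes passed. Without ORF replicate 1 the count was 1327, without ORF replicate 2 it was 807, and without ORF replicate 3 it was 51. Without MT replicates 1, 2 and 3 in turn it was 68, 143 and 189, and without NC replicates 1, 2 and 3 it was 214, 240 and 287. The NC libraries share in the estimate of the spread, in the scaling and in the filter of genes tested. Of 60 called genes chosen by the naming rule, 23 passed without each of the 9 libraries, and the other 37 did not pass without ORF replicate 3. Those 23 genes were LINC00266-1, PKM, JUN, EGR1, FOS, KLF10, ATF3, DDIT3, PPP1R15A, HERPUD1, GADD45A, RELB, CXCL8, TNFAIP3, LTA, HBEGF, ZNF79, CASS4, HIST2H2BE, HIST1H1E, EBF4, LEMD1 and GAL3ST4.

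Among 28 immediate early genes, 9 rose in ORF and 0 fell, with a median log2 difference of 0.42 against -0.03 over all genes tested. Over all genes, 0.900% were called higher and 0.825% lower. The count of this list was 6 with only the 6 compared libraries, 11 with DESeq2 and 15 after adjustment for GC content and length. EGR1, a zinc finger transcription factor, stood at 3079, 2657 and 3530 normalized reads in ORF and at 743, 885 and 548 in MT, and rose 4.31-fold (log2 2.11 ± 0.17 SE, adjusted p = 1.06e-05). FOS, the partner of JUN in the AP-1 dimer, stood at 434, 348 and 516 in ORF and at 109, 118 and 81.1 in MT, a 4.17-fold rise (adjusted p = 0.000108). The lowest ORF library of both genes was replicate 2, and it still lay well above every MT and NC library. KLF10, a growth-inhibitory zinc finger factor, stood at 3319, 3584 and 3737 against 1537, 1404 and 1467 (2.41-fold, adjusted p = 2.87e-05). The other genes that rose were JUN, the small MAF factor MAFF (2.81-fold), the matricellular gene CYR61 (2.54-fold), the FOS relatives FOSB (2.55-fold) and FOSL1 (1.97-fold), and EGR2 (3.48-fold). JUN in the NC libraries stood at 434, 445 and 440 and in MT at 487, 516 and 460, so the 6 control values of this gene lay within a narrow band below the ORF values of 3328, 2625 and 3568.

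Of 21 genes of the integrated stress response, 5 rose (0.900% over all genes) and 0 fell, with a median log2 difference of 0.52. The count was 3 with only the 6 compared libraries, 9 with DESeq2 and 11 after GC and length adjustment. PPP1R15A, which encodes the phosphatase subunit that reverses eIF2alpha phosphorylation, stood at 3647, 2331 and 3605 in ORF and at 1029, 1195 and 992 in MT, a 2.93-fold rise (adjusted p = 0.000357). ATF3 stood at 2206, 1722 and 2432 in ORF, 447, 465 and 372 in MT and 323, 333 and 290 in NC. DDIT3, the stress factor also called CHOP, stood at 566, 440 and 637 in ORF, 125, 132 and 122 in MT and 134, 133 and 117 in NC. For all 3 genes ORF replicate 2 was the lowest ORF library and no MT or NC library came near it. SESN2, a stress-induced regulator of mTORC1, rose 1.96-fold (adjusted p = 0.0211), and PSAT1, an enzyme of serine synthesis, rose 1.51-fold (adjusted p = 0.0359). SESN2 lost its call without ORF replicate 3, MT replicate 1 or MT replicate 3, with adjusted p = 0.151, 0.108 and 0.0917.

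Of 16 endoplasmic reticulum chaperones and genes of the unfolded protein response, 3 rose (0.900% over all genes) and 0 fell, with a median log2 difference of 0.25. The count was 1 with only the 6 compared libraries, and 6 both with DESeq2 and after GC and length adjustment. HSPA5, the main chaperone of the endoplasmic reticulum, stood at 31942, 31196 and 36137 in ORF and at 19057, 18225 and 20284 in MT, a 1.72-fold rise (adjusted p = 0.0118). HERPUD1, which helps clear misfolded proteins from that compartment, stood at 2217, 1645 and 2157 against 870, 1039 and 827 (2.19-fold, adjusted p = 0.00118). XBP1, a transcription factor of this response, stood at 2449, 2001 and 2289 against 1465, 1586 and 1442 (1.5-fold, adjusted p = 0.0264). Both groups were tight for HSPA5, and every ORF library lay above every MT library for all 3 genes. HSPA5 lost its call without ORF replicate 3 or MT replicate 1 (adjusted p = 0.123 and 0.0798), and XBP1 without ORF replicate 3, MT replicate 1 or 3, or NC replicate 1 or 2 (adjusted p from 0.057 to 0.153).

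Letters of binding motifs known from these pathways stood in some of the promoters, read from RefSeq on GRCh38.p14 as 250 bases before to 50 bases after the gene start. The motifs searched on both strands were CRE (TGACGTCA), AP-1 (TGANTCA) and C/EBP-ATF (TTGCATCA), which do not match one another as written. They stood in 2.91%, 5.26% and 0.542% of the 13658 promoters of genes tested. Promoters were matched for 319 of the 458 called genes only. Among these, CRE stood in 5.59% of 179 higher and 1.43% of 140 lower genes. AP-1 stood in 9.50% and 4.29%, and C/EBP-ATF in 1.12% and 0%. Whether these shares differ was not tested. A match is a description of these letters, not a site in use. AP-1 letters also stood before genes called lower in ORF, such as ENO2 and C15orf62. The windows below, with the motif in capitals, are of stress and inflammatory genes described here, all called higher in ORF. They lie 58 bases before the start of PPP1R15A (chr19:48872355-48872378, plus strand), 241 before that of DDIT3 (chr12:57520741-57520763, minus strand), 137 before that of CXCL8 (chr4:73740424-73740446, plus strand) and 176 before that of HERPUD1 (chr16:56931958-56931981, plus strand).
PPP1R15A CRE: tctcttcgTGACGTCAgcacgccg
DDIT3 AP-1: cgcgcgcaTGACTCAcccacctc
CXCL8 AP-1: aagtgtgaTGACTCAggtttgcc
HERPUD1 C/EBP-ATF: gcggcgggTTGCATCAgcccgtgc

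Of 27 genes of NF-kB signalling and inflammation that were tested, 5 rose (0.900% over all genes) and 0 fell, and their median log2 difference was 0.17. The count was 4 with only the 6 compared libraries, 6 with DESeq2 and 10 after GC and length adjustment. CXCL8, a chemokine that draws neutrophils, stood at 85.2, 116 and 94.5 in ORF, 6.96, 8.71 and 16.6 in MT and 16.1, 15.0 and 8.23 in NC. RELB, a subunit of the non-canonical NF-kB dimer, stood at 996, 707 and 923 in ORF and at 225, 370 and 220 in MT, where replicate 2 was the highest MT library. TNFAIP3, an inhibitor of NF-kB signalling, stood at 226, 245 and 241 against 100, 105 and 105, a 2.28-fold rise with a narrow spread in both groups (adjusted p = 0.0018). NFKB1, which encodes the p105 precursor, rose 1.43-fold (adjusted p = 0.038). LTA, a cytokine of the TNF family, had 88 reads in ORF and 2 in MT, a ratio of 48.4 with a 95% counting interval of 13.0 to 406.

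Of 27 targets of p53, the DNA damage factor, 7 rose (0.900% over all genes) and 0 fell, with a median log2 difference of 0.36. The count of higher genes was 2 with only the 6 compared libraries, 12 with DESeq2 and 14, with 1 lower, after GC and length adjustment. GADD45A, a growth arrest gene, stood at 4776, 4319 and 4922 in ORF and at 1562, 1653 and 1603 in MT, a 2.90-fold rise with tight groups (log2 1.54 ± 0.11 SE, adjusted p = 4.85e-06). Its relative GADD45B stood at 1361, 805 and 1024 against 425, 538 and 365 (2.37-fold, adjusted p = 0.00696), and its groups were wider. SESN2, also on this list, AEN (1.72-fold), the BH3-only gene PMAIP1 (1.73-fold), the kinase gene PLK2 (1.45-fold) and TRIAP1 (1.45-fold) rose as well. GADD45B lost its call without ORF replicate 3 or MT replicate 1 (adjusted p = 0.0599 and 0.0501), and SESN2 without ORF replicate 3 (0.151), MT replicate 1 (0.108) or MT replicate 3 (0.0917).

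Genes of MAPK output and the EGF family went both ways, with 3 of 23 higher and 2 lower, against 0.900% and 0.825% over all genes, and a median log2 difference of 0.10. With only the 6 compared libraries 1 was higher and 0 lower, and after GC and length adjustment 7 were higher and 2 lower. HBEGF, a ligand of the EGF receptor, stood at 503, 406 and 520 in ORF and at 223, 252 and 221 in MT (2.04-fold, adjusted p = 0.00391). The phosphatase gene DUSP8 rose 1.74-fold (adjusted p = 0.0314), and the cyclin gene CCND1, at 15276, 13887 and 16036 against 9857, 10159 and 10487, rose 1.48-fold (adjusted p = 0.0333). In the other direction, DUSP6, which encodes the phosphatase that switches off ERK, stood at 760, 829 and 835 in ORF and at 1282, 1233 and 1176 in MT, 1.52-fold lower (adjusted p = 0.0177). SPRY4, an inhibitor of receptor tyrosine kinase signalling, stood at 2140, 2146 and 2251 against 3063, 3061 and 3004, 1.40-fold lower (adjusted p = 0.0371). For both inhibitors, the lowest MT or NC library lay above the highest ORF library. HBEGF passed without each library, DUSP6 lost its call without ORF replicate 3 or MT replicate 1 (adjusted p = 0.0939 and 0.108), DUSP8 without ORF replicate 3, MT replicate 1 or 3, or NC replicate 1 or 2 (0.053 to 0.151), CCND1 without ORF replicate 3, any MT replicate, or NC replicate 1 or 2 (0.0598 to 0.201), and SPRY4 when any library other than ORF replicate 1 or 2 was left out (0.0646 to 0.163).

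**Figure D2:**
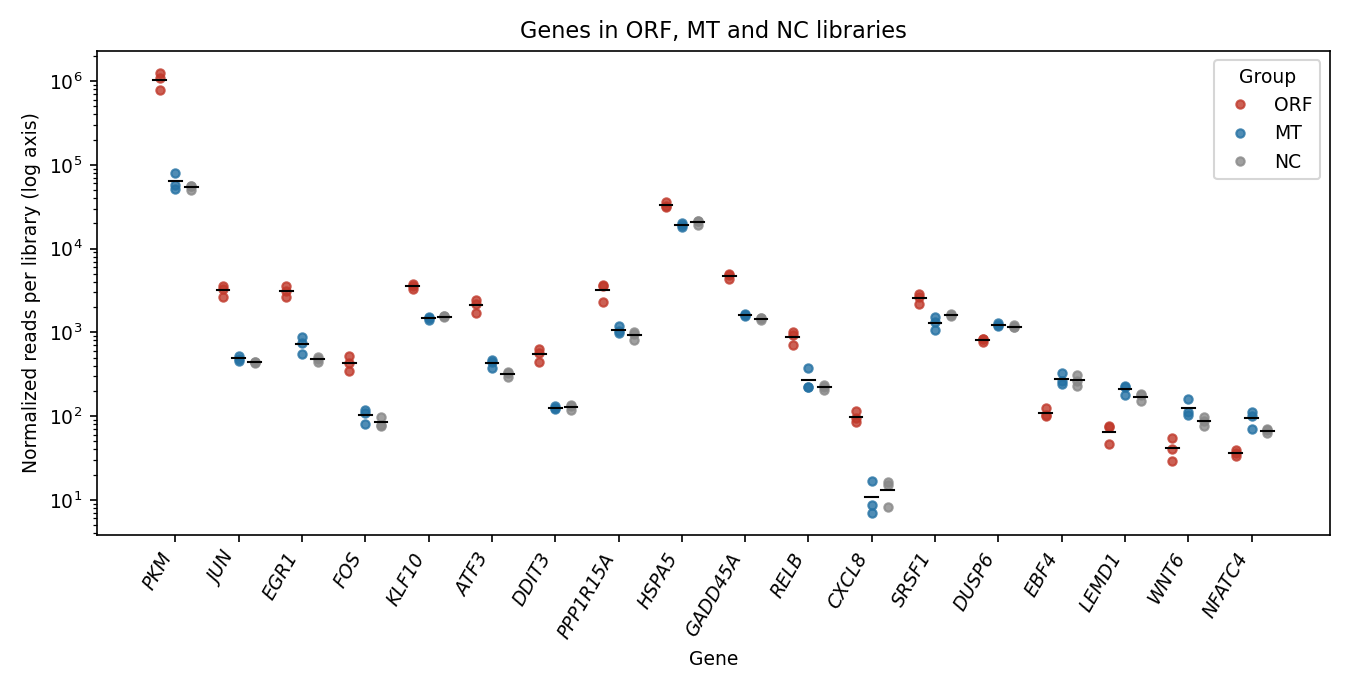
Normalized reads of 18 genes on a log axis, with a point for each of the 3 ORF, 3 MT and 3 NC libraries and a bar at each group mean. ORF points lie above all MT points from PKM to SRSF1 and below them from DUSP6 to NFATC4, and the MT points lie near the NC points.

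Of 31 genes of glycolysis and hypoxia, only PKM rose and 2 fell, against 0.900% called higher and 0.825% lower over all genes. The median log2 difference was -0.03, and it was 0.00 after adjustment for GC content and length. That adjustment called 5 higher and 4 lower, and the 6 compared libraries alone 1 and 0. ALDOC, the brain form of aldolase, stood at 606, 530 and 394 in ORF and at 1055, 1459 and 764 in MT (2.10-fold lower, adjusted p = 0.0186). ENO2, a form of enolase, stood at 1629, 1289 and 1118 against 2115, 2904 and 1933 (1.72-fold lower, adjusted p = 0.0301). MT replicate 2 was the highest library of both genes, and the NC values of ALDOC, from 738 to 754, lay just below the lowest MT value. ALDOC lost its call without ORF replicate 3, MT replicate 1 or MT replicate 2 (adjusted p = 0.142, 0.0904 and 0.0576), and ENO2 without ORF replicate 3, MT replicate 1 or 2, or any NC replicate (0.0539 to 0.2).

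Of 24 SR proteins and their kinases, 3 rose (0.900% over all genes) and 0 fell, with a median log2 difference of 0.32. The count was 1 with only the 6 compared libraries, 8 with DESeq2 and 10 after GC and length adjustment. SRSF1, the founding SR protein, stood at 2159, 2630 and 2882 in ORF and at 1342, 1052 and 1534 in MT (1.96-fold, adjusted p = 0.00594), while NC lay between, at 1653, 1546 and 1605. SRSF7 rose 1.49-fold (adjusted p = 0.0337) and SRSF2 rose 1.45-fold (adjusted p = 0.0251). None of 41 hnRNPs and other splicing regulators and none of 18 m6A writers, erasers and readers passed limma, with medians of 0.16 and 0.13, while 9 and 5 had an unadjusted p below 0.05. Of these lists edgeR called 1 and 0 genes, DESeq2 4 and 1, all higher, and GC and length adjustment 9 higher and 1 lower in the first and 3 higher in the second. The most abundant members were HNRNPA1 (log2 difference -0.17 ± 0.13 SE, adjusted p = 0.574) and the m6A reader IGF2BP2 (-0.02 ± 0.11, adjusted p = 0.954). SRSF1 lost its call without ORF replicate 3 (adjusted p = 0.065), SRSF7 when any library other than ORF replicate 1 or 2 was left out (0.0515 to 0.196), and SRSF2 without ORF replicate 3, any MT replicate, or NC replicate 1 or 2 (0.0593 to 0.156).

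Genes of the clustered histone loci, a set drawn up after their values had been seen, were higher in 12 of 45 members tested and lower in 0. Over all genes tested, 0.900% were called higher and 0.825% lower. The median log2 difference of the set was 1.27, with a range from -1.24 to 3.17. HIST1H2BD, an H2B gene, stood at 270, 261 and 334 in ORF and at 86.6, 69.6 and 108 in MT (3.28-fold, adjusted p = 0.0011). HIST2H2BE, another H2B gene, stood at 106, 60.7 and 94.5 against 15.9, 24.2 and 21.8 (4.02-fold, adjusted p = 0.00303). HIST1H1E, a linker histone gene, stood at 66.1, 43.3 and 84.2 against 9.95, 14.5 and 8.72 (5.35-fold, adjusted p = 0.00333). Every ORF library of these genes lay above every MT and NC library. Of the 6 histone genes with a mean of 50 or more normalized reads over all 9 libraries, 3 rose, and the median of the 6 was 0.71. Those that rose were HIST1H2BD, HIST1H2AC (1.69-fold) and HIST1H2BK (1.61-fold), while HIST2H2BE and HIST1H1E lay below that mean. Histone genes are near copies of one another, so reads can be split among them, and most of their mRNAs lack the poly(A) tail by which many library protocols select RNA. HIST1H4E (9.03-fold, adjusted p = 0.00427) lost its call without ORF replicate 3 (adjusted p = 0.0506).

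Of the other genes with large rises, CASS4, a scaffold protein of focal adhesions, stood at 42.6, 57.4 and 71.5 in ORF and at 3.98, 4.84 and 6.10 in MT (9.63-fold, adjusted p = 0.000357). ZNF79, a zinc finger gene, stood at 497, 407 and 583 against 126, 108 and 125 (4.08-fold, adjusted p = 1.51e-05). Both were as low in NC as in MT. Genes with very few reads were given by counts. FAM153A had 41 reads in ORF and 2 in MT, AC137894.1 had 37 and 2, and DRC1, a component of motile cilia, had 40 and 2. The pseudogene KRT18P17 had 26 reads and 0, which is at least 9.53-fold higher against a floor of 3 counts over the group. The 4 lost their calls without ORF replicate 3, with adjusted p = 0.13, 0.121, 0.0744 and 0.0506 in that order, FAM153A also without MT replicate 1 or 2 (0.0798 and 0.0557), AC137894.1 without MT replicate 1 or 3 (0.0765 and 0.0503) and DRC1 without MT replicate 1 (0.0544).

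The genes with the largest falls were of low to moderate abundance. LEMD1, a LEM domain gene, stood at 74.0, 75.8 and 46.1 in ORF and at 229, 223 and 181 in MT, 3.26-fold lower (log2 -1.70 ± 0.21 SE, adjusted p = 0.0011). EBF4, an early B cell factor gene, stood at 103, 124 and 100 against 264, 328 and 241 (2.52-fold lower, adjusted p = 0.00189). The sulfotransferase gene GAL3ST4 stood at 19.1, 28.2 and 26.5 against 82.6, 67.7 and 83.7 (3.12-fold lower, adjusted p = 0.00391). All 9 values of each of these genes placed NC on the MT side of the ORF libraries.

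WNT6, a secreted Wnt ligand, stood at 54.9, 40.1 and 28.8 in ORF and at 111, 160 and 104 in MT (3.02-fold lower, adjusted p = 0.00764). NFATC4, a calcium-regulated transcription factor, stood at 33.6, 39 and 35.7 against 100, 112 and 69.8 (2.52-fold lower, adjusted p = 0.0111). Every ORF library of both genes lay below every MT and NC library. Lower by 2.38-fold to 2.76-fold were ASPDH, C15orf62, the mTOR inhibitor gene DEPTOR, the netrin gene NTN5, the adaptor gene SHC2, the sphingolipid desaturase gene DEGS2 and SERPINA5, the protein C inhibitor. These 9 genes lost their calls without ORF replicate 3, with adjusted p = 0.0599 for WNT6, 0.0664 for NFATC4, 0.0599 for ASPDH, 0.0563 for C15orf62, 0.0939 for DEPTOR, 0.206 for NTN5, 0.178 for SHC2, 0.135 for DEGS2 and 0.0733 for SERPINA5. All but WNT6 and ASPDH also lost them without MT replicate 1, at 0.0626 for C15orf62 to 0.138 for DEGS2. DEPTOR, NTN5, SHC2 and DEGS2 did not pass without MT replicate 2 or 3 either (0.0545 to 0.113), nor C15orf62 without MT replicate 3 (0.0595). NTN5, SHC2 and DEGS2 also missed the threshold without NC replicate 1 or 2 (0.0593 to 0.0721), SHC2 and DEGS2 without NC replicate 3 (0.0519 and 0.0512), and NTN5 and DEGS2 without ORF replicate 2 (0.0537 and 0.0583).

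Of 17 Wnt/beta-catenin targets tested, CCND1 rose (adjusted p = 0.0333), SOX9 fell and the median log2 difference was -0.38. Against 0.900% and 0.825% over all genes, DESeq2 called 1 higher and 5 lower, GC and length adjustment 1 and 6, and the 6 compared libraries alone 0 and 0. SOX9, a transcription factor of crypt cells, stood at 2725, 2773 and 2522 in ORF and at 3833, 4066 and 3707 in MT (1.45-fold lower, adjusted p = 0.0308). All ORF values lay below all MT and NC values. Without ORF replicate 3 the adjusted p was 0.192 for SOX9 and 0.201 for CCND1, and neither passed without an MT replicate or without NC replicate 1 or 2 (0.0598 to 0.164).

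The following lists of growth and stress genes are given beside 0.900% of all genes called higher and 0.825% lower. Of 30 MYC targets and genes of ribosome biogenesis, 1 rose, the polyamine enzyme gene ODC1 (1.62-fold, adjusted p = 0.0408), with a median log2 difference of 0.25. Of 30 genes of DNA replication and S phase, 1 rose, the ribonucleotide reductase gene RRM2 (1.51-fold, adjusted p = 0.0211), with a median of 0.19. Of 17 NRF2 targets, the redox enzyme genes TXNRD1 (1.52-fold, adjusted p = 0.0444) and ME1 (1.42-fold, adjusted p = 0.0396) rose, and the median was 0.30. None of 28 genes of mitosis, 22 of cholesterol synthesis, 15 heat shock proteins and 13 mitochondrially encoded mRNAs passed limma, with medians of -0.12, 0.09, 0.25 and -0.18, while 1, 5, 3 and 1 of them had an unadjusted p below 0.05. In the same order edgeR called 0, 1, 1 and 0 of them, and DESeq2 called 0, 1, 3 and 0. The counts of higher genes for MYC, replication and NRF2 were 0 with only the 6 compared libraries, 4, 2 and 5 with DESeq2 and 9, 4 and 8 after GC and length adjustment. Their most abundant members stood at log2 differences of 0.21 ± 0.19 SE for CDC20, -0.37 ± 0.15 for SREBF2, 0.22 ± 0.16 for HSP90AB1 and -0.21 ± 0.22 for MT-CO1. Without ORF replicate 3 the adjusted p was 0.214 for ODC1, 0.151 for RRM2, 0.237 for TXNRD1 and 0.192 for ME1, and these 4 genes also missed the threshold without MT replicate 1, 2 or 3 and without NC replicate 1 (0.0535 to 0.199). ODC1, TXNRD1 and ME1 did so without NC replicate 2 or 3 as well (0.0525 to 0.0861), and TXNRD1 and ME1 without ORF replicate 2 (0.0641 and 0.0532).

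The cell identity and signalling lists are read against the same background. Of 30 interferon response genes, 1 rose, the oligoadenylate synthetase-like gene OASL (2.03-fold, adjusted p = 0.0388). Among 14 mesenchymal genes, SPARC, a matrix protein gene, was 2.82-fold lower (adjusted p = 0.0322) at fewer than 50 normalized reads per library. With only the 6 compared libraries neither list held a call, and after GC and length adjustment 5 and 3 were higher and 1 in each was lower. None of 15 epithelial adhesion genes passed limma, edgeR or DESeq2, while 4 had an unadjusted p below 0.05 in limma. Of 9 intestinal differentiation genes, 1 rose, the aminopeptidase gene ANPEP, at 31.4, 27.1 and 41.5 in ORF and 3.98, 4.84 and 8.72 in MT (5.15-fold, adjusted p = 0.0183). Of 6 blood cell markers tested, 1 rose, the lipopolysaccharide co-receptor gene CD14, at 30.3, 20.6 and 35.7 against 5.97, 3.87 and 6.10 (4.68-fold, adjusted p = 0.0118). Without ORF replicate 3 the adjusted p was 0.0939 for OASL, 0.14 for SPARC, 0.133 for ANPEP and 0.0939 for CD14, and none of the 4 passed without MT replicate 1 (0.0501 to 0.121). OASL also missed the threshold without ORF replicate 2, MT replicate 3 or any NC replicate (0.058 to 0.13), SPARC without any MT or NC replicate (0.0513 to 0.109) and ANPEP without MT replicate 2 (0.0576). No marker of fibroblasts (6 tested), hepatocytes (5), other cultured lines (8) or colon epithelium (9) passed limma, edgeR or DESeq2, where 0, 0, 3 and 0 had an unadjusted p below 0.05 in limma, with medians of -0.45, 0.50, -0.41 and 0.03, and the last was -0.01 under quantile normalization. The most abundant of them were PDGFRB, HNF4A, PAX8 and KRT8, with adjusted p = 0.986, 0.415, 0.22 and 0.718.

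**Figure D3:**
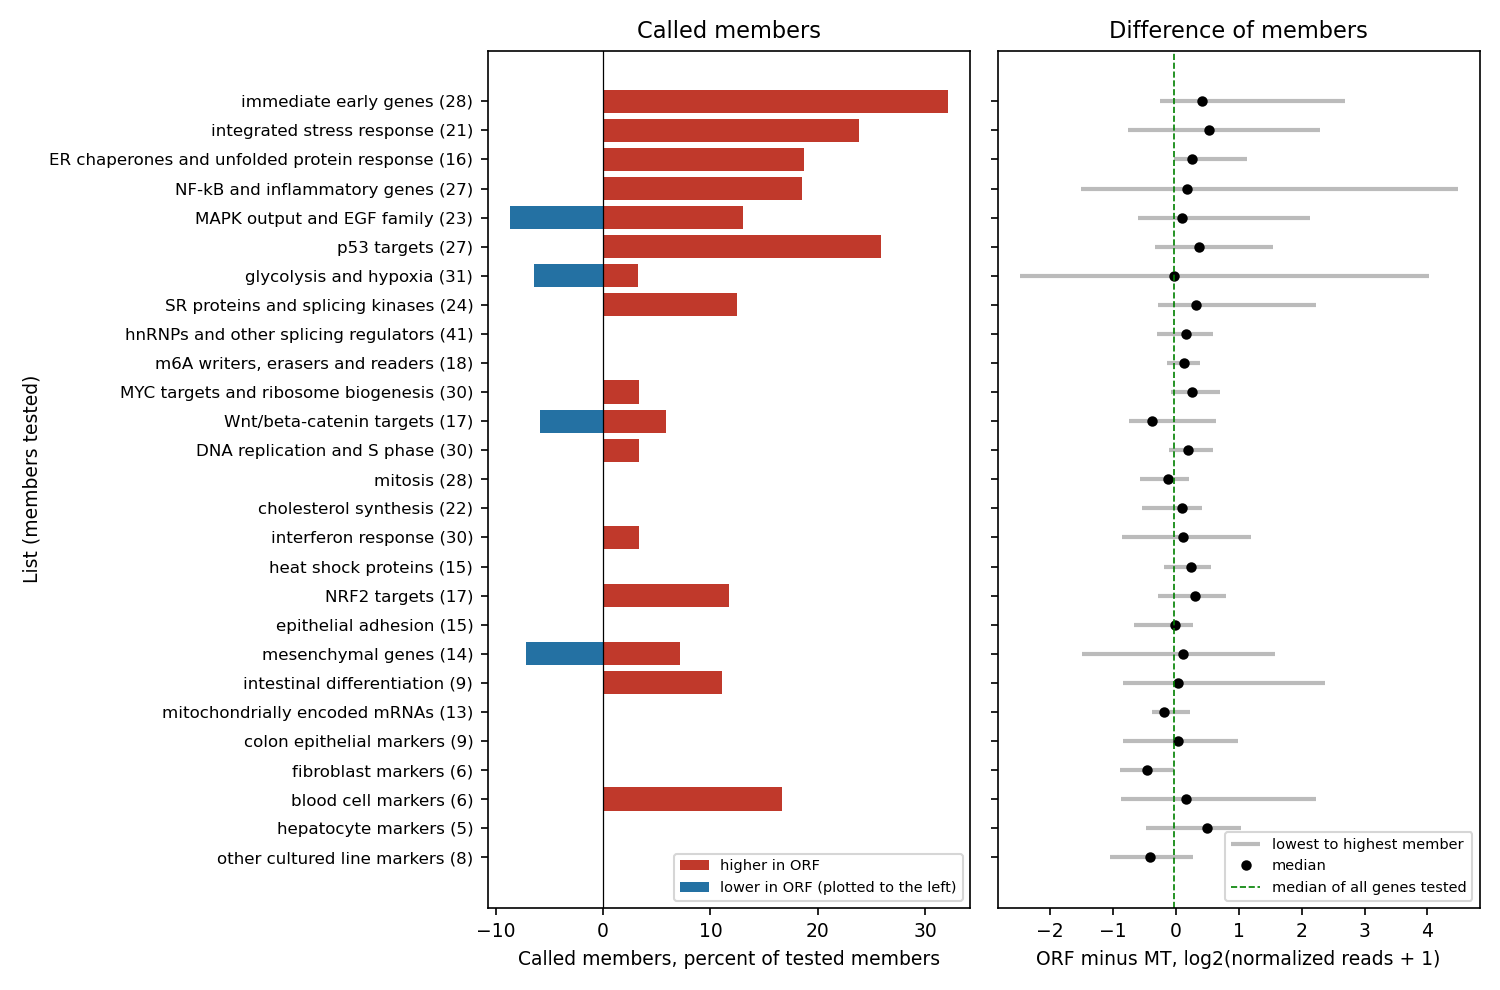
For 27 gene lists, the left panel gives the percentage of tested members called higher (red, to the right) or lower (blue, to the left) in ORF. The right panel gives the median (dot) and the range (grey line) of the ORF minus MT difference in log2(normalized reads + 1), with the median of all genes tested as a dashed line, and the immediate early list reaches the highest share, 9 of 28.

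Splicing was compared in 19255 events that both deposited tables held at equal coordinates, as inclusion levels from 0 to 1. For a retained intron the level is the length-adjusted share of the event's reads that fall to the form with the intron. For an alternative 5' or 3' splice site it is the share of the longer form. Only reads of the event enter, so a level is not a share of all transcripts of the gene. In the planned limma test of log2 odds, 18 events (0.0935%) passed with a level difference of at least 0.05, 3 higher (0.0156%) and 15 lower (0.0779%) in ORF. By type, 9 of 9145 skipped exons (0.0984%), 5 of 1586 retained introns (0.315%), 3 of 1610 alternative 3' splice sites (0.186%) and 1 of 1135 alternative 5' splice sites (0.0881%) passed, and 0 of 5779 mutually exclusive exons (0.00%) in limma, of which 385 had an unadjusted p below 0.05 and 9 (0.156%) passed with the variance trend described next. Leaving out a library left between 1 and 9 events: 1, 9 and 2 without the ORF library listed first, second and last in the deposited cells, and 3, 2 and 2 without the MT libraries in the same order. These cells carry no replicate number. A fit that lets the variance follow the number of reads, chosen after the data had been seen, called 171 events (0.888%), 46 higher (0.239%) and 125 lower (0.649%), and shared 11 with the planned test. Leaving out a library moved this count to between 65 and 192, with 65 without the ORF library listed last and 100 without the one listed first. Below, an event is said to have changed where the planned test called it, and other events are given by their levels with both adjusted p-values.

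Most introns had a lower retention level in ORF, 69.0% of the 1586 retained introns tested. The mean level over these introns was 0.333, 0.356 and 0.350 in the ORF libraries and 0.388, 0.363 and 0.397 in MT, with NC at 0.378, 0.370 and 0.402. The highest ORF library lay just below the lowest MT library (0.347 ± 0.0118 against 0.383 ± 0.018, SD, n = 3, two-sided exact permutation p = 0.1, the smallest that 3 against 3 can give). Mean levels were also lower in ORF for skipped exons, by -0.00776, and for alternative 5' splice sites, by -0.00987 (exact permutation p = 0.1 each). For alternative 3' splice sites and mutually exclusive exons the exact permutation p was 0.3 and 0.7. All 5 retained introns that passed the planned test were lower in ORF, and the variance trend called 53 (3.34%), of which 50 were lower (3.15%) and 3 higher (0.189%). The 50 lower introns had a median length of 439 bases against 283.5 over all introns tested.

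The 5 introns lay in SNHG12, CPNE1, RBM3, DDIT3 and CIRBP. Their ends are shown because each begins with GT and ends with AG, the letters in capitals, as most introns do. Bases of the flanking exon precede the GT and follow the AG, and the letters were read on the strand of the gene from GENCODE 29 transcripts on GRCh38.
SNHG12 start: aagGTaaagttgatcagctt
SNHG12 end: gtggtgtttttttcttttAGatt
CPNE1 start: ctcGTgagtacctgcttctc
CPNE1 end: attttcattcttgtctccAGgtc
RBM3 start: gagGTggggcctcctatctg
RBM3 end: atgactgccttttgttctAGggg
DDIT3 start: cagGTaaacttaacctaccc
DDIT3 end: ctgcagatgtgcttttccAGact
CIRBP start: aagGTgaggctgctgctggg
CIRBP end: gtcccgccctctgtctccAGtct

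The intron of SNHG12, a host gene of small nucleolar RNAs, is 324 bases long (chr1:28579588-28579911, minus strand). Its retention level was 0.328, 0.396 and 0.384 in ORF and 0.830, 0.813 and 0.845 in MT (difference -0.46, adjusted p = 0.0199). NC lay with MT, at 0.799, 0.801 and 0.861. The intron of CPNE1, a calcium-dependent membrane-binding protein gene (410 bases, chr20:35630491-35630900, minus strand), stood at 0.237, 0.324 and 0.249 in ORF and at 0.906, 0.828 and 0.830 in MT (adjusted p = 0.0199). It rested on 1 to 3 spliced reads per MT library. RBM3, which encodes a cold-inducible RNA-binding protein, held an intron of 147 bases (chrX:48575668-48575814, plus strand) at 0.408, 0.377 and 0.532 in ORF and at 0.845, 0.910 and 0.876 in MT (adjusted p = 0.0466). The MT levels of RBM3 rested on 3 to 6 spliced and 60 to 84 inclusion reads per library.

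DDIT3 carried a called intron of 281 bases (chr12:57517425-57517705, minus strand), at 0.177, 0.199 and 0.218 in ORF and 0.591, 0.663 and 0.625 in MT (adjusted p = 0.0313). Within the same interval an alternative 3' splice site stretch of 171 bases changed from 0.529 in MT to 0.134 in ORF (adjusted p = 0.0437), and it shares reads with the intron. NC ranged from 0.404 to 0.663 for the intron. DDIT3 thus joined a higher gene level with a lower intron retention. CIRBP, a relative of RBM3, held an intron of 292 bases (chr19:1271037-1271328, plus strand) at 0.474, 0.679 and 0.706 in ORF and at 1 in all 3 MT libraries (adjusted p = 0.0199), where 0 spliced reads and 46, 49 and 54 inclusion reads were counted. The NC libraries stood at 0.614, 1 and 1, so 1 of them overlapped ORF. Of the 5 introns, the variance trend called all, with adjusted p from 5.63e-19 for SNHG12 to 0.0374 for CIRBP. In the planned test, DDIT3 and RBM3 passed under none of the 6 fits that left out a library, and SNHG12, CPNE1 and CIRBP under 1. With the trend, CIRBP passed under none of these 6 fits and the other 4 introns under all.

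**Figure D4:**
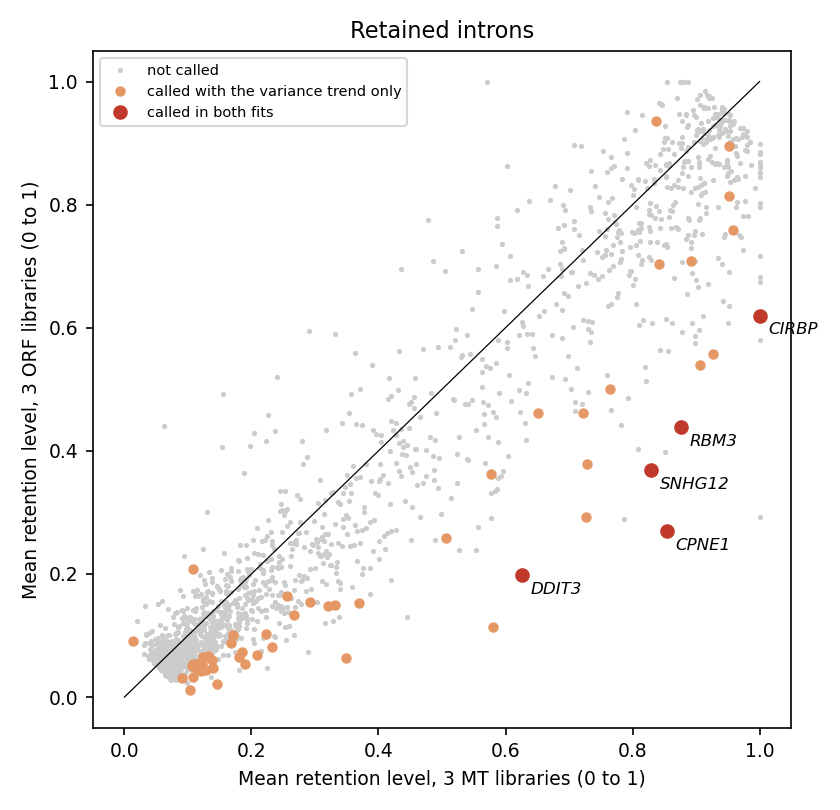
Each point is 1 of 1586 retained introns, with its mean level over the 3 MT libraries (horizontal) and the 3 ORF libraries (vertical), both from 0 to 1, and a line of equality. The 5 introns called in both fits lie well below the line, and 69.0% of all introns lie below it.

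Introns of several RNA-binding protein genes passed with the variance trend but not in the planned test. TRA2A, an SR-like activator of exon inclusion, kept an intron of 280 bases at 0.282, 0.370 and 0.229 in ORF and at 0.709, 0.626 and 0.846 in MT (adjusted p = 0.128 planned and 0.000188 with the trend). HNRNPH3, an hnRNP gene, stood at 0.020, 0.0949 and 0.0745 against 0.329, 0.389 and 0.327 (0.137 and 2.85e-11). In both of these the highest ORF library lay below the lowest MT library, and each passed under all 6 fits with the trend that left out a library. RBM25 (0.0683 against 0.208), TIAL1 (0.0445 against 0.128), SRSF5 (0.758 against 0.959) and a longer intron of CIRBP (0.462 against 0.650) had lower mean levels in ORF too, with adjusted p of 0.203, 0.225, 0.247 and 0.257 in the planned test and 0.0011, 1.25e-05, 0.0497 and 0.0011 with the trend. With the trend they passed under 5, 6, 1 and 4 of the 6 fits that left out a library. In the other direction, the circadian gene PER1 kept an intron at 0.0917 in ORF and 0.0138 in MT (0.166 and 0.00196), and it passed under 4 of those fits.

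Exons of SR protein and hnRNP genes differed in the same way between the fits. The 456-base exon of SRSF3 (chr6:36599821-36600276, plus strand) was included at 0.0952, 0.0977 and 0.116 in ORF and at 0.0256, 0.0251 and 0.0282 in MT, with NC at 0.0251, 0.0217 and 0.0287 (adjusted p = 0.194 planned and 6.51e-14 with the trend). The 449-base exon of SRSF7 (chr2:38748898-38749346, minus strand) stood at 0.102, 0.114 and 0.121 against 0.0592, 0.0462 and 0.0563 (0.49 and 5.12e-07). Each rested on over 800 skipping reads in every ORF and MT library, and all ORF levels lay above all MT and NC levels. SRSF3 and SRSF7 are known to carry exons whose inclusion leads to decay of the transcript, and whether these are those exons was not tested. The 139-base exon of HNRNPH3 within the interval of its intron, with which it shares reads, stood at 0.759, 0.792 and 0.752 in ORF and at 0.944, 0.968 and 0.935 in MT (0.215 and 2.63e-07). The longer 5' splice site form of HNRNPC, by 39 bases, stood at 0.434, 0.397 and 0.463 against 0.328, 0.327 and 0.340 (0.471 and 1.85e-08), and that of SNRNP70, a protein of the U1 particle, at 0.670, 0.596 and 0.595 against 0.885, 0.803 and 0.942 (0.345 and 0.000425). With the trend, SNRNP70 passed under 5 of the 6 fits that left out a library and the other 4 events under all.

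Of the 9 skipped exons called in the planned test, 7 (0.0765% of those tested) were lower in ORF, in NDE1, CELF1, NIPA2, PLEKHM1P1, EIF4G2, FAM149A and PICALM, and 2 (0.0219%) were higher, in HSCB and SUZ12P1. NDE1, a gene of the dynein pathway, included a 126-base exon at 0.472, 0.530 and 0.363 in ORF and at 1 in every MT library, but NC stood at 0.555, 0.523 and 0.412, overlapping ORF (adjusted p = 0.032). CELF1, an RNA-binding regulator of splicing, included a 72-base exon at 0.543, 0.635 and 0.593 in ORF and at 1 in MT, and NC stood lower still, at 0.386, 0.428 and 0.119 (adjusted p = 0.0341). For these 2 exons the MT libraries thus stood apart from both other groups. A level of 1 in all 3 libraries means that 0 skipping reads were counted, and such levels underlie the calls in NDE1, CELF1, NIPA2, PLEKHM1P1, FAM149A and PICALM in MT and those in HSCB and SUZ12P1 in ORF. No skipped exon passed the planned test in any of the 6 fits that left out a library. With the trend (adjusted p = 0.00931 and 0.0368), NDE1 passed under 4 of these fits and CELF1 under none.

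Of the called splice sites, RIOK3, a kinase gene, used the longer form of a 143-base stretch (chr18:23473484-23473626, plus strand) at 0.727, 0.758 and 0.744 in ORF and at 1 in all MT libraries, with NC at 0.971, 0.948 and 0.927 (adjusted p = 0.00376). Exactly 23 reads of the shorter form were counted in each ORF library and 0 in MT. RIOK3 passed under all 6 fits of the planned test that left out a library and under none of the 6 with the variance trend, whose adjusted p was 0.0339 with all libraries, and its gene level was 2.31-fold higher in ORF (adjusted p = 0.0011). At 3' splice sites, 2 events were lower (0.124%), in DDIT3 and NOSIP, and 1 was higher (0.0621%), in BTN2A2. NOSIP, a ubiquitin ligase gene, stood at 0.913, 0.919 and 0.851 against 0.992, 0.991 and 0.993, and the butyrophilin gene BTN2A2 at 1 in all ORF libraries against 0.853, 0.867 and 0.884 (adjusted p = 0.0437 each, and 0.0443 and 0.576 with the trend). Both rested on few reads of the rarer form, 1 to 4 per MT library, and lost their calls in all 6 fits of either kind that left out a library.

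Further events passed only with the variance trend. EIF4A2, a helicase of translation initiation, included a 107-base exon (chr3:186788310-186788416, plus strand) at 0.416, 0.325 and 0.502 in ORF and at 0.124, 0.129 and 0.153 in MT (adjusted p = 0.276 planned and 4.97e-10 with the trend). NC stood at 0.151, 0.162 and 0.172, and a 111-base form of the exon from the same start shares its reads. BCLAF1, a transcription and RNA-processing factor, included a 147-base exon at 0.537, 0.573 and 0.547 against 0.771, 0.787 and 0.745 (0.369 and 0.00864). PRKAB1, a subunit of the energy sensor AMPK, included a 174-base exon at 0.285, 0.298 and 0.338 against 0.112, 0.00694 and 0.0306 (0.43 and 0.0115). The groups of all 3 events were apart, and with the trend they passed under 6, 5 and 4 of the 6 fits that left out a library. DDIT3 and the snoRNA host gene GAS5 each held 6 events called with the trend, and EIF4A2 and the myosin light chain gene MYL6 each held 4, with overlapping reads. Of 133 genes that held an event called with the trend and were tested for level, 14 were also called for level, 12 higher and 2 lower. Of all genes tested 1.73% were called, but these include many with too few reads for a splicing test. The share among genes with a tested event was not computed. The exon of PKM at chr15:72221168-72221284, a skipped exon event, was included at 0.271, 0.272 and 0.343 in ORF and at 0.121, 0.180 and 0.0793 in MT, with adjusted p = 0.49 planned and 0.0604 with the trend.

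The trend called 62 skipped exons (0.678%), 35 lower (0.383%) and 27 higher (0.295%) in ORF. Lengths were a multiple of 3, which keeps the reading frame, in 60% of the 35, in 37.0% of the 27 and in 44.5% of the 9145 tested. The 2 shortest stretches among the named splice sites are shown whole, to show the letters gained in ORF, read from GENCODE 29 transcripts on GRCh38. The first is an alternative 3' stretch of ANAPC15, a subunit gene of the anaphase-promoting complex (chr11:72111282-72111286, minus strand), which was used at 0.748, 0.736 and 0.701 in ORF and at 0.612, 0.576 and 0.565 in MT (adjusted p = 0.54 planned and 0.0286 with the trend). The second is an alternative 5' stretch of the ribosomal protein gene RPL17 (chr18:49491736-49491745, minus strand), at 1, 1 and 0.915 against 0.763, 0.774 and 0.794 (0.362 and 0.0143). With the trend, ANAPC15 passed under none of the 6 fits that left out a library and RPL17 under 2.
ANAPC15 stretch: tctag
RPL17 stretch: gtgggggaaa

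**Figure D5:**
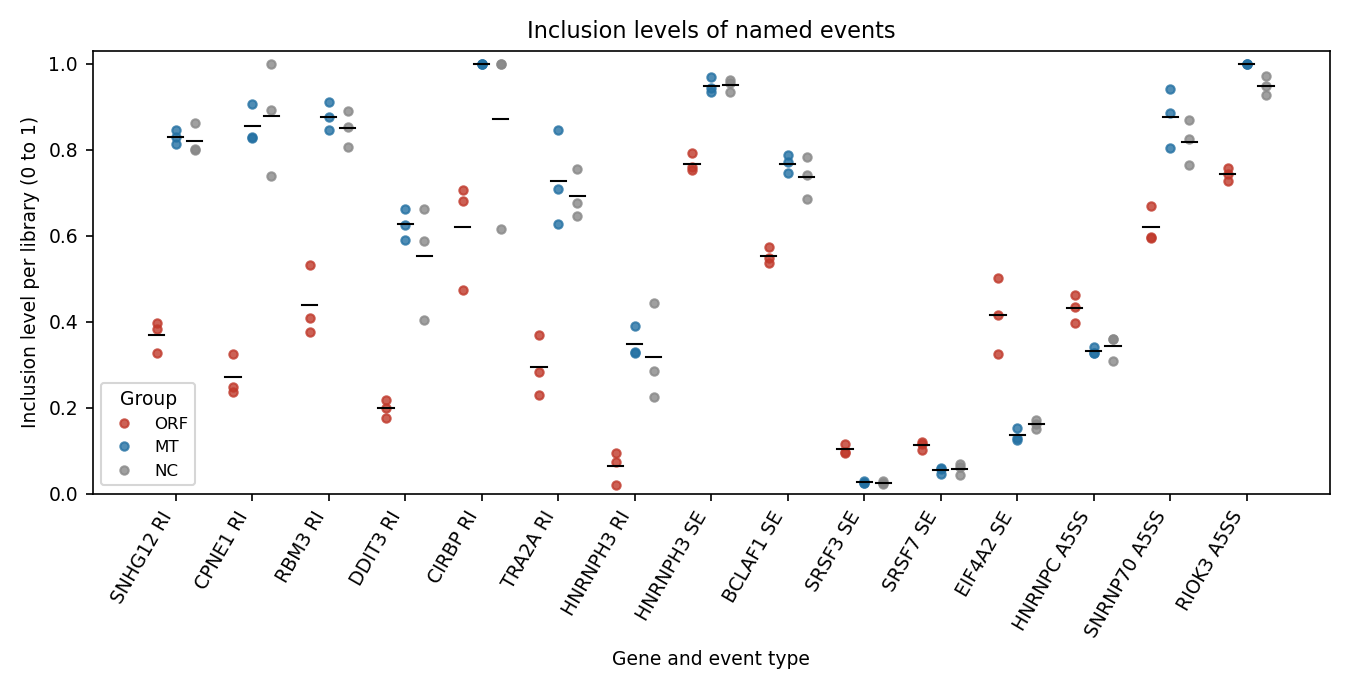
Inclusion levels from 0 to 1 of 15 named events, with a point per library and a bar at each group mean, for retained introns (RI), skipped exons (SE) and alternative 5' splice sites (A5SS). ORF points lie below the MT points for the introns and above them for SRSF3, SRSF7, EIF4A2 and HNRNPC, and the NC points lie nearer to MT than to ORF in most events.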

How the data were processed

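The authors' deposited gene tables hold a normalized signal per library and pair each construct with NC. Every value is a whole multiple of the smallest step of its column, so whole reads were recovered, with 100% of values within 0.1 of a whole number. The NC reads of the 29612 genes in both tables were identical and the tables were joined on gene ID. The deposited splicing tables hold other units, namely reads of the inclusion and skipping forms and the forms' effective lengths. Commas lost from cells were restored from the deposited inclusion levels and, where several splits matched them, as for levels of 0 or 1, by the only split whose libraries were of similar size. That rule can narrow the spread of such events. Per the submitters' processing notes the builds were GRCh38 and hg38. Aligner, counter and strandedness were not given in the sources used here, so overlapping and antisense genes are uncertain.

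Reads were divided by median-of-ratios size factors over 9 libraries. Genes that reached 1 normalized read in 3 or more libraries were tested on log2(value + 1) with the moderated test of limma 3.58.1 in R 4.3.3, with a mean-variance trend, with all 9 libraries in the fit and Benjamini-Hochberg adjustment over 26546 genes at 0.05. The design had planned this for normalized values. The count test of edgeR 4.0.16 on the recovered reads, an alternative, called 534 genes, and DESeq2 1.42.0 was another. Splicing events needed a mean of 20 reads per group and an overall level of 0.05 to 0.95. Log2 odds with a pseudocount of 0.5 were tested with limma over the 6 libraries, adjusted within each of 5 event types, and a call also needed a level difference of 0.05.

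Genes were named by rule: LINC00266-1, PKM, MYC and IGF2BP1, the 12 largest rises and falls among called protein-coding genes with a mean of 50 or more in the higher group, up to 3 called members per direction of each of 27 lists (the most abundant where none was called), and 5 called genes of fewer reads. Other called list members are named by their list, and some results that the rule names are not reported here. In each event type, up to 4 rises and 4 falls with 30 reads per library were eligible, and called splicing regulators. The promoter and sequence windows and the histone set were chosen after values had been seen. Members and lists were chosen with earlier results of these data known.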

Additional observations from a re-analysis of the deposited data

Results flagged for a closer look

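Genes held only by the ORF table were outside every comparison above, because such a gene had at most 1 read over the 3 libraries labelled MT. There were 1361 such genes, and the 6 with the most ORF reads are listed, so they were picked for being high in ORF. The MT table alone held 1476 genes, with at most 11 reads each over the MT libraries. IFNA22P, an interferon pseudogene, had 58 reads in ORF, 22, 15 and 21 by library, and 0 in NC. MOBP, a myelin gene, had 40 reads, 13, 8 and 19 by library. TNF, the inflammatory cytokine, had 29 reads, 9, 8 and 12 by library. The pseudogene AC098847.1 had 28 reads, and so had WFIKKN2, a secreted inhibitor of myostatin, while CNTFR, a cytokine receptor subunit, had 27. Against a floor of 3 counts over the MT group, IFNA22P, MOBP, TNF, AC098847.1, WFIKKN2 and CNTFR were 21.3, 14.7, 10.6, 10.3, 10.3 and 9.90-fold higher in ORF. These ratios leave out the counting error of the ORF reads, so they are not lower limits. Reads of pseudogenes and of genes with near copies can be split among them.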

How the results depend on the processing

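The count of 458 called genes was within 1.5 times under TMM (533), quantile normalization (599), pseudocounts of 0.5 and 5 (437 and 481), no filter (422), a filter at 10 (589), edgeR (534, of which 431 were called by limma too) and, chosen after the data had been seen, genes of either table (458). It was 2242 after GC and length adjustment, 1166 with DESeq2 and 89 with only the 6 ORF and MT libraries, and the cause was not tested, except that the last fit holds fewer libraries. Leaving out 1 library gave 51 to 1327. None of the 60 called named genes reversed its direction in any of these fits. Of the named genes, quantile normalization did not call SRSF7, SHC2, TXNRD1, NTN5 and DEGS2, DESeq2 did not call FAM153A, AC137894.1, KRT18P17 and DRC1, and TMM did not call TXNRD1 and ME1. Of the 60 named calls, 27 were lost with only the 6 ORF and MT libraries, 18 with the replicate block in limma, 9 with it in edgeR and 37 without ORF replicate 3. Replicate numbers did not pair the libraries: same-numbered ORF and MT libraries correlated at -0.64, -0.74 and 0.38 in their deviations, and not every library correlated best with its own number. With the replicate block, limma called 233 genes, edgeR 380, and limma with GC and length adjustment 1993, the last an alternative chosen after the data had been seen. For splicing, no paired analysis was possible because the deposited cells carry no replicate numbers. The 18 called events became 4 at a minimum of 10 reads, 11 with a pseudocount of 1, 171 with the variance trend, 1 to 9 without single libraries, 13 with the NC libraries added, 17 at a level difference of 0.1, 26 at 50 reads, and under the trend 100, 192 and 65 without each ORF library and 121, 189 and 126 without each MT library in listed order. Genes and events with few reads, and events with 0 reads of 1 form in a group, limit what these depths can show.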
